A study of Homo sapiens with 9 samples.

Results

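The regions described here are H3K4me3 peaks of ordinary width, at least 1000 and under 2000 bp, that held a peak of HA-tagged BAZ2B and no peak of the untagged control. They were chosen by width and by overlap of at least 1 bp between the deposited peak lists, on chromosomes 1 to 22 and X of hg19. Of 9457 H3K4me3 peaks of that width, 3447 met the rule (36.4%, exact 95% binomial interval 35.5 to 37.4%). Over H3K4me3 peaks of all widths, 28.3% held HA-BAZ2B without WT (4803 of 16997), and outside this width range 18.0% did. By width alone the share was 6.37% under 500 bp (5.14 to 7.80%), 17.3% from 500 to under 1000 bp (16.3 to 18.3%) and 39.7% from 2000 bp upwards (36.5 to 43.0%). The width range and both anti-HA lists chose the members, so the presence of HA-BAZ2B and the absence of WT are not results, and the shares by width are a description.

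All 9 libraries came from A549, an epithelial line from a human lung adenocarcinoma, and formed 3 groups with 3 replicates each. In the HA-BAZ2B group, cells with an HA epitope inserted at the 5' end of their own BAZ2B gene were profiled with anti-HA. In the H3K4me3 group, the same tagged cells were profiled with an antibody to that mark; the antibody entries of 2 of its replicates end in another digit, and the titles were followed. In the WT group, A549 cells without the tag were profiled with anti-HA. Drosophila chromatin (35 ng) was added as a spike-in to the reactions, and an siRNA transfection is described that no label assigns to a library. The labels do not say whether the tagged line is 1 clone.

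H3K4me3 is trimethylation of lysine 4 of histone H3, placed by SET1 and MLL complexes and found around the start sites of active genes. BAZ2B pairs with ISWI-type ATPases, which slide nucleosomes. Its bromodomain binds acetylated histone tails, and its PHD finger binds the histone H3 tail with an unmodified lysine 4 in vitro. CUT&Tag tethers a transposase to an antibody in permeabilised cells, so that reads come from cuts near the target. The wild-type cells have no HA epitope, so their anti-HA peaks give the background of the assay.

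Each list holds the rows of 1 source library, kept where the peak recurred in at least 2 replicates, so no value has a replicate error and no test over cultures could be made. Intervals below are 95% intervals over regions, exact binomial for shares and from order statistics for medians. They cover counting error over regions only. Intervals of differences between medians are built otherwise and are described where they are given. The deposited fold enrichment and −log10 p of a row together fix 2 further numbers. These are the pile-up, which is the number of extended reads stacked at the summit, and the local background against which the pile-up was tested. A whole-number pile-up matched the deposited −log10 p to within 1e-04 in all 6788 HA-BAZ2B, 16997 H3K4me3 and 2381 WT rows. The backgrounds came out as whole numbers of reads in 10 kb, or as a genome-wide minimum. That minimum stood for 8.49 reads per 10 kb in the HA-BAZ2B library, 16.2 in the H3K4me3 library and 15.6 in the WT library. The HA-BAZ2B source library thus had 0.545 times the depth of the WT one by this measure, and the list with more peaks came from the shallower library. The depth of the other replicates is unknown.

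Members had more H3K4me3 reads at their summits than peaks of the same width class without anti-HA signal, and fewer than peaks with both anti-HA lists. The median H3K4me3 pile-up was 97 reads at members (96 to 98, n = 3447), 110 at peaks with both lists (109 to 112, n = 1364) and 75 at peaks with neither (74 to 76, n = 4552). Background reads per 10 kb ranked the 3 kinds in the same order, at medians of 310 in members, 367.5 with both and 228.5 with neither. The −log10 q did so as well, at medians of 57.3 in members, 63.8 with both and 44.7 with neither. Neither is a measure independent of the pile-up. The background rose with the pile-up across all H3K4me3 peaks, and −log10 q rests on pile-up and background together. Fold enrichment barely separated the 3 kinds. Its median was 9.33 at members (9.23 to 9.42), 9.02 with both (8.88 to 9.13) and 9.21 with neither (9.13 to 9.31). The middle 50% of members spanned 81 to 113 reads and that of the peaks with neither 58 to 91, so single regions of these kinds overlapped widely.

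The near-equal fold enrichments joined regions of unlike width. Members were wider than peaks with neither, at a median of 1373 against 1283 bp, and narrower than those with both, at 1444.5 bp. Fold enrichment fell as width grew, from a median of 11.5 among members of 1000 to under 1200 bp to 6.93 among those of 1800 to under 2000 bp, while their pile-up grew from 84 to 109 reads. The background behind it was counted over 10 kb, and across all H3K4me3 peaks it correlated with the pile-up at a rho of 0.884. Within 200 bp steps of width, the fold enrichment of members stood above that of peaks with neither list in all 5 steps, while the gap in pile-up was slightly smaller in each step than over the whole range. Among peaks of 1200 to under 1400 bp, fold enrichment was 10.1 at members and 9.62 with neither, and pile-up was 94 and 76 reads. Among peaks of 1800 to under 2000 bp, fold enrichment was 6.93 at members and 6.71 with neither, and pile-up was 109 reads (106 to 111) and 89 (85 to 92). Peaks with both lists kept the higher pile-up in all 5 steps, for example 103 reads at members and 111 with both from 1400 to under 1600 bp. In fold enrichment, members were not above peaks with both lists in any step, unlike over the whole range. The medians were 10.1 at members and 10.2 with both from 1200 to under 1400 bp, 8.84 and 8.93 from 1400 to under 1600 bp, and 6.93 and 7.11 from 1800 to under 2000 bp.

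Along the range of H3K4me3 pile-up, the share of members grew and then levelled. With the 9457 peaks in 10 groups of nearly equal number, 12.7% of the lowest group were members (10.6 to 15.0%; median pile-up 38 reads), and 37.5% of group 5 (34.4 to 40.7%; 84 reads). Groups 8, 9 and 10 held 50.2, 50.6 and 48.1% (44.9 to 51.3% in the last). Peaks with both lists went on growing over the same groups, to 28.2% in group 9 (25.4 to 31.2%) and 378 of 946 peaks in group 10, while those with neither shrank to 11.1%. Among peaks that held HA-BAZ2B at all, the part without WT was 75.9% in group 1 (68.5 to 82.4%). It was highest in group 3, at 83.7% (79.0 to 87.8%), and fell to 54.6% in group 10 (51.2 to 58.0%). By fold enrichment, the share of members stayed between 35.1 and 38.4% in groups 2 to 10, and was 30.8% in the lowest.

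**Figure D1:**
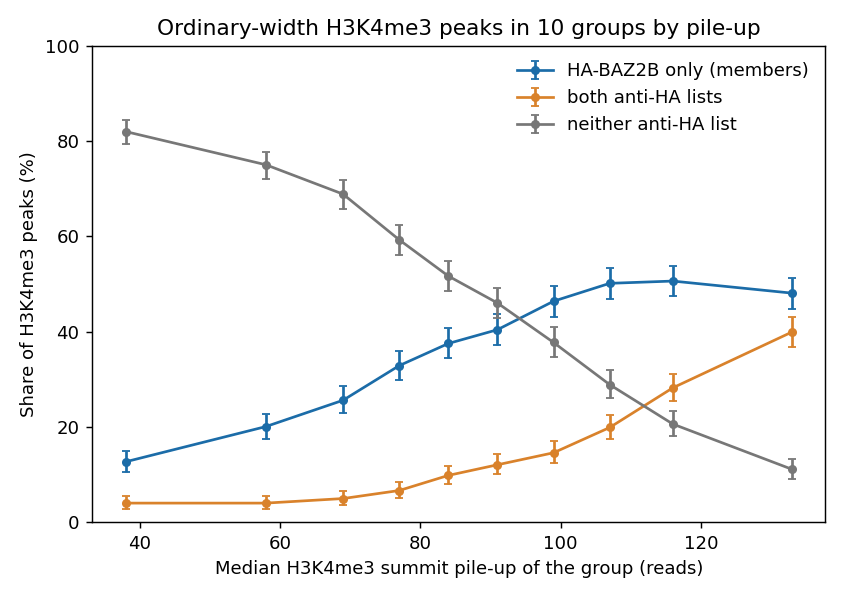
Share of ordinary-width H3K4me3 peaks (y axis, %) that held HA-BAZ2B only (the members), both anti-HA lists or neither, in 10 groups of nearly equal number ordered by H3K4me3 summit pile-up (x axis, median reads of the group). Bars are exact 95% binomial intervals over peaks; the members' share levels near 50% in the 3 highest groups while the share with both lists goes on growing.

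At members, the height of the HA-BAZ2B signal followed that of H3K4me3 and was close to it once library depth was taken into account. The HA-BAZ2B pile-up had a median of 53 reads (52 to 54; range 4 to 138) and the H3K4me3 pile-up of 97 (range 12 to 203). Divided by the genome-wide background of its own library, used here as a measure of depth, this was 214 for HA-BAZ2B (210 to 218) and 200 for H3K4me3 (198 to 202). Taken region by region, over the 3427 members with 1 HA-BAZ2B peak, the depth-scaled HA-BAZ2B pile-up was a median of 1.06 times that of H3K4me3 (1.05 to 1.07; middle 50% from 0.870 to 1.25). It lay between 0.5 and 2 times in 96.2% of them (95.5 to 96.8%). Peaks with both lists gave nearly the same ratio, 1.05 (1.03 to 1.07, n = 1351). Both sets were chosen for a listed HA-BAZ2B peak. The 4552 peaks with neither list and the 94 with WT only have no listed HA-BAZ2B value and do not enter these ratios. The closeness in height therefore describes only regions where HA-BAZ2B was strong enough to be listed. Across members, Spearman's rho between the libraries was 0.72 for pile-up, 0.85 for reads in 10 kb and 0.77 for fold enrichment. These describe regions measured in the same 2 libraries, which are not independent replicates and which share mappability and copy number.

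**Figure D2:**
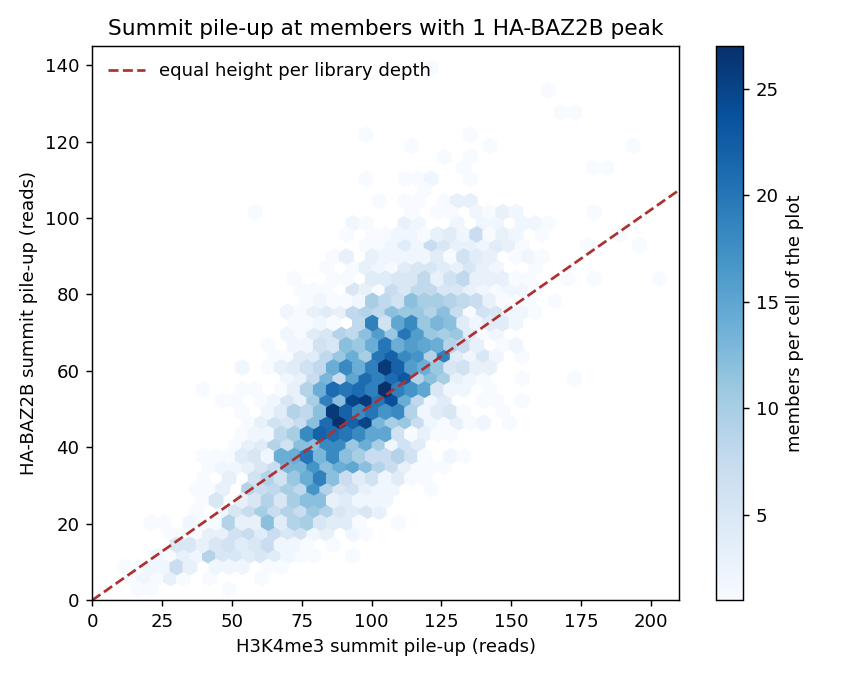
Pile-up at the HA-BAZ2B summit (y axis, reads) against pile-up at the H3K4me3 summit (x axis, reads) for the 3427 members with 1 HA-BAZ2B peak, with darker cells holding more members. The dashed line marks equal height relative to each library's genome-wide background; the bulk lies along and slightly above it, with a median ratio of 1.06.

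The ratio was lower at weakly marked members. With the members in 5 equal groups by H3K4me3 pile-up, the depth-scaled ratio had a median of 0.904 in group 1 (12 to 77 reads) and of 1.10 in group 5 (116 to 203 reads). The grouping value is also the denominator of the ratio. By width, it was 0.962 from 1000 to under 1200 bp and 1.11 from 1800 to under 2000 bp. The lowest ratio, 0.160, was at chr13:34116384-34117416 (13q13.2), with 4 HA-BAZ2B reads and 49 H3K4me3 reads at the summits. The next was 0.232 at chr6:167040147-167041714 (6q27), with 7 and 59 reads. The highest, 3.48, was at chr19:42773930-42775034 (19q13.2), with 103 HA-BAZ2B and 58 H3K4me3 reads. There the HA-BAZ2B summit lay 1920 bp from that of H3K4me3, outside the member, another H3K4me3 peak lay 396 bp away, and a WT peak 0.594 kb away. Ratios of 2.58 and 2.49 followed, with summits 994 and 1669 bp apart. The highest ratio with summits within 20 bp was 2.25, at chr17:37008913-37010474 (17q12), with 85 and 74 reads. At chr3:14443754-14445413 (3p25.1) it was 2.23, with 138 HA-BAZ2B reads, the most of any member, and 121 H3K4me3 reads. These regions were chosen after their values had been seen.

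HA-BAZ2B peaks covered most of the H3K4me3 peak at most members, with ends close to its edges at the median. They covered a median of 89.2% of a member (88.8 to 89.8%), and at least 80% of it in 75.4% of the 3427 members with 1 HA-BAZ2B peak. In width, the ratio of HA-BAZ2B over H3K4me3 peak had a median of 0.938 (0.932 to 0.943). Median widths were 1282 bp for HA-BAZ2B and 1372 bp for H3K4me3, and the HA-BAZ2B peak was the wider in 30.3% of members (28.8 to 31.9%). Its ends lay a median of 32 and 34 bp inside the left and right ends of the H3K4me3 peak, with nearly the same inset on either side. Widths correlated with a rho of 0.74 across members. Coverage rose with the mark, from a median of 81.1% in group 1 by H3K4me3 pile-up to 92.5% in group 5. Peaks with both lists were alike in shape, with a width ratio of 0.944 (0.935 to 0.954) and 91.1% covered (90.3 to 91.8%).

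Summits lay most often close together, and the distances had a smaller second mode between 300 and 450 bp. The distance between the HA-BAZ2B and the H3K4me3 summit had a median of 94 bp (87 to 101), and in 36.3% of members it was under 50 bp (34.7 to 38.0%). A further 14.8% had 50 to under 100 bp (13.6 to 16.1%) and 18.4% had 100 to under 200 bp (17.2 to 19.8%). The next 100 bp, from 200 to under 300 bp, held 6.16% (5.38 to 7.01%), the 200 bp from 300 to under 500 bp held 16.4% (15.2 to 17.7%), and 7.82% had 500 bp or more. In 50 bp steps, the share dipped to 2.68% at 250 to under 300 bp (2.17 to 3.28%, 92 members) and reached 5.22% at 350 to under 400 bp (4.50 to 6.02%, 179 members). It was 2.48% at 450 to under 500 bp (1.99 to 3.06%). Of the 563 members with 300 to under 500 bp, 437 (77.6%) had their summits on opposite sides of the middle of the H3K4me3 peak. Of the 1245 with under 50 bp, 61 (4.90%) did. The share rose at each distance step: 16.7% at 50 to under 100 bp, 34.3% at 100 to under 200 bp and 53.1% at 200 to under 300 bp. It was 92.5% at 500 bp or more. Summits that lie far apart cross the middle more often by geometry alone, so this contrast is not particular to the second mode. The H3K4me3 pile-up of these 563 members was 96 reads and that of the 1245 was 98, so strength hardly differed, while their widths were 1452 and 1330 bp. Peaks with both lists had 17.9% at 300 to under 500 bp (15.9 to 20.1%), an interval that overlaps that of the members.

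**Figure D3:**
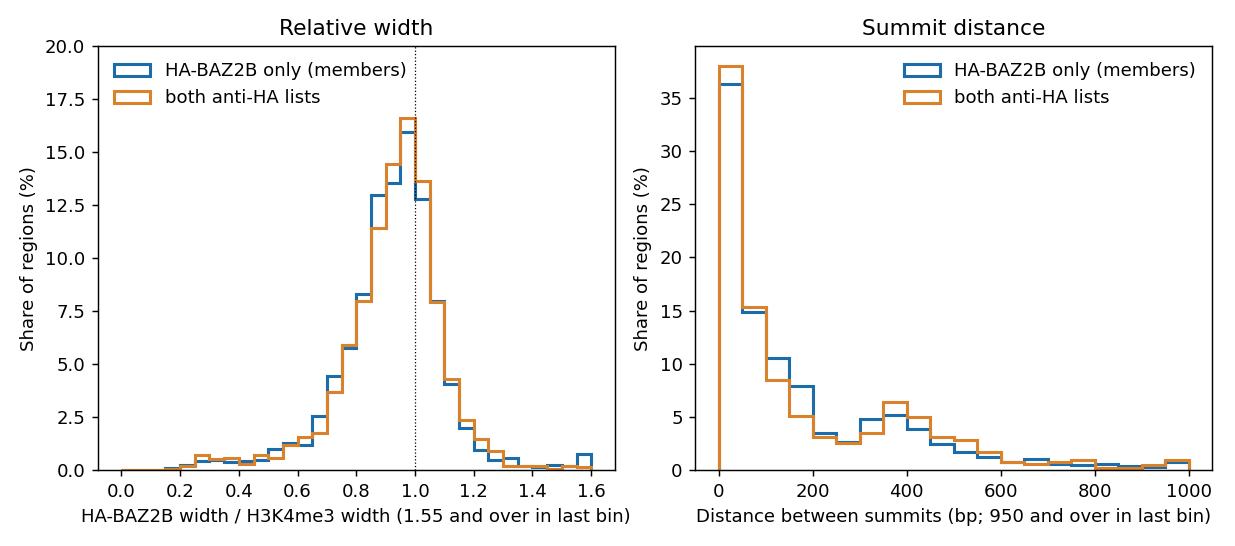
Left, width of the HA-BAZ2B peak relative to its H3K4me3 peak (x axis, ratio); right, distance between their summits (x axis, bp); y axes give the share of regions (%) for members (n = 3427) and for peaks with both anti-HA lists (n = 1351). The ratios cluster just under 1, and the distances show a main mode under 50 bp and a smaller mode at 350 to 400 bp in both sets.

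The member with the highest HA-BAZ2B fold enrichment was chr19:50879344-50880617 (19q13.33), at 17.2, with an H3K4me3 fold enrichment of 15.6 and pile-ups of 71 and 143 reads. The second, chr1:28818-29880 (1p36.33), had 17.1 for HA-BAZ2B and 16.3 for H3K4me3, the highest H3K4me3 value of all members. It was followed by chr11:64863425-64864540 (11q13.1) with 15.4 for HA-BAZ2B and 104 H3K4me3 reads, chr14:24422466-24423506 (14q11.2) with fold enrichments of 15.4 for HA-BAZ2B and 14.6 for H3K4me3, and chr17:45908111-45909377 (17q21.32) with 15.4 and 13.3. These 5 regions were narrow for the class, at 1041 to 1274 bp, and 3 of them were also among the 5 highest by H3K4me3. The other 2 of those 5 were chr1:159750454-159751474 (1q23.2) and chr1:229406600-229407715 (1q42.13), with HA-BAZ2B values of 12.8 and 11.8 against H3K4me3 values of 15.8 and 15.7. Whether reads in these regions map to 1 place only was not checked, and chr1:28818-29880 lies close to the end of its chromosome.

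The members lowest in HA-BAZ2B fold enrichment had pile-ups near the median of all members. The lowest HA-BAZ2B fold enrichment was 2.45, at chr5:142782209-142784123 (5q31.3), where 63 HA-BAZ2B reads were stacked, above the median of 53. The next 4, at 2p14, 21q22.3, 2q32.2 and 15q22.2, had fold enrichments of 2.68 to 2.80 and pile-ups of 45 to 54 reads. Their H3K4me3 pile-ups were 96 to 107 reads with fold enrichments of 3.71 to 5.07. The lowest H3K4me3 fold enrichments, 2.16 at chr19:42773930-42775034, 2.69 at chr17:8029279-8030309 (17p13.1) and 2.81 at chr19:49377481-49379025 (19q13.33), came with 58, 79 and 86 H3K4me3 reads, under the median of 97, and other H3K4me3 peaks lay 396, 3602 and 436 bp away.

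The members weakest by pile-up had few reads in both libraries. At chr1:43672361-43673412 (1p34.2), 7 HA-BAZ2B and 12 H3K4me3 reads were stacked, and at chr6:17417895-17418963 (6p22.3), 5 and 12. At chr12:92601563-92602595 (12q22) and chr16:90061349-90062417 (16q24.3), the HA-BAZ2B pile-up was 4 reads, the lowest among members and equal to that of the 13q13.2 region above. Their HA-BAZ2B peaks were 292 bp wide, which equals the read extension recovered for that library. The H3K4me3 pile-up was highest at 16p13.11, with 203 reads at chr16:15004814-15006708 and 196 at chr16:16403424-16405329, where HA-BAZ2B had 86 and 91 reads. This band is known for long repeated segments, and reads of near-identical copies could be placed at either copy, so these 2 values are uncertain. Read placement was not checked at the other members either.

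Partial coverage was rare. HA-BAZ2B covered under 50% of the H3K4me3 peak in 93 of 3427 members with 1 HA-BAZ2B peak (2.71%, 2.20 to 3.31%). The smallest part, 17.1%, was at chr6:160768839-160770549 (6q25.3), followed by 17.4% at chr11:9779681-9781362 (11p15.4), 17.5% at chr12:93322198-93323596 (12q22), and 18.7% at both chr1:33428860-33430609 (1p35.1) and chr14:105956133-105958037 (14q32.33). In the 11p15.4 region, the summits lay 995 bp apart and 11 HA-BAZ2B reads stood against 72 H3K4me3 reads. At the other end, HA-BAZ2B held the whole H3K4me3 peak in 327 members (9.54%), for example chr1:713545-715180 (1p36.33), chr1:2517071-2518971 (1p36.32) and chr1:9294353-9295548 (1p36.22). The first had 54 HA-BAZ2B and 95 H3K4me3 reads.

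Nearly every member held a single HA-BAZ2B peak. There were 2 in 20 members (0.580%, 0.355 to 0.895%) and 3 or more in 0 of 3447. In 3 cases 1 HA-BAZ2B row spanned a pair of members. The 20 members with 2 HA-BAZ2B peaks had a median H3K4me3 pile-up of 76.5 reads (74 to 96) and 33 reads (27 to 40) at the higher of their HA-BAZ2B summits. Their median width was 1477.5 bp (1409 to 1716), and 76.2% of their length was covered. Among them were chr1:8085364-8087361 (1p36.23), 1998 bp wide with 37 HA-BAZ2B and 77 H3K4me3 reads, and chr2:11483706-11485453 (2p25.1), with 68 and 102 reads. A further pair lay on 6p22, at chr6:26521182-26522655 and chr6:28456801-28458295, with 28 and 12 HA-BAZ2B reads against 87 and 34 H3K4me3 reads.

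The absence of a WT peak is an absence from a filtered list. MACS2 numbers peaks along each chromosome, and the numbers missing between listed WT peaks are peaks of the source library that did not recur. Of 3410 members that lay between 2 listed WT peaks, 70 had no missing number between them (2.05%), so the WT source library had no peak there at all. The median was 6 missing numbers and the largest 30. Counting for each stretch no more such peaks than it had missing numbers, at most 3153 of the 3410 members could have held a WT peak that was removed, and at least 257 did not. The 70 members with no room for one had a median of 49 HA-BAZ2B reads (41 to 56) and 91 H3K4me3 reads (82 to 97). Their depth-scaled ratio was 1.06 (0.951 to 1.18), close to that over all members, though its interval over 70 regions is wide. Among them was chr19:42773930-42775034, whose HA-BAZ2B summit lay outside the member and which had a listed WT peak 0.594 kb away.

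Listed WT peaks were seldom near. A WT peak lay within 1 kb of 9 members (0.261%, 0.119 to 0.495%) and within 10 kb of 111 (3.22%, 2.66 to 3.87%), against 12 (0.264%) and 119 (2.61%, 2.17 to 3.12%) of the 4552 peaks with neither list. Within 100 kb the shares were 30.5% of members (29.0 to 32.1%) and 25.4% of the peaks with neither (24.1 to 26.7%). The nearest to a WT peak was chr15:60688503-60690295 (15q22.2), at 116 bp, with 97 HA-BAZ2B and 138 H3K4me3 reads. It was followed by chrX:148622035-148623251 (Xq28) at 339 bp and chr17:8024676-8025676 (17p13.1) at 414 bp.

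Peaks with both anti-HA lists give the size of the untagged signal where it was listed. Over 1348 such H3K4me3 peaks with 1 HA-BAZ2B and 1 WT peak, the depth-scaled HA-BAZ2B pile-up was a median of 4.80 times that of WT (middle 50% from 3.07 to 7.16) and the higher in 1281 of them. The HA-BAZ2B pile-up at peaks with both lists was a median of 59 reads and the WT pile-up 23 reads, although the WT library was deeper. The lowest WT pile-up on any ordinary-width H3K4me3 peak was 7 reads, and their median was 22. No WT value exists at the members, so the ratio cannot be given for them. HA-BAZ2B itself was lower at members, at 53 reads against 59 (58 to 61) with both lists. Scaled by library depth, the values were 214 at members and 238 with both lists (234 to 246). The fold enrichment differed less, at 8.61 (8.54 to 8.71) in members and 8.45 (8.34 to 8.62) with both.

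Members were spread over the genome much as other peaks of their width. They lay in 683 of the 774 hg19 bands that held an ordinary-width H3K4me3 peak. Giemsa-negative bands, the lighter and more gene-dense part of a stained chromosome and 42.4% of its length here, held 62.6% of members (60.9 to 64.2%), 59.5% of peaks with both lists (56.9 to 62.1%) and 61.9% of those with neither (60.5 to 63.3%). Members were most numerous in 16p13.3, with 45 of 110 ordinary-width peaks, followed by 8q24.3 with 33 of 63, 16p11.2 with 32 of 71 and 19p13.3 with 31 of 105. In 19q13.2, 25 of 63 were members and as many held both lists, whereas in 16q22.1 there were 21 members and 1 peak with both lists. These bands were picked for their counts.

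The share of ordinary-width peaks that were members varied little between chromosomes, from 30.2% on chromosome 22 (24.1 to 36.9%) and 31.0% on chromosome 4 (26.2 to 36.1%) to 42.0% on chromosome 20 (36.1 to 48.1%). The part without WT among peaks that held HA-BAZ2B had a wider range. It was highest on chromosome 4 at 83.2% (75.7 to 89.2%), X at 82.9% (75.6 to 88.7%) and 6 at 80.9% (74.8 to 86.0%), and lowest on chromosome 14 at 62.2% (54.8 to 69.2%) and 19 at 60.8% (55.4 to 66.1%). On chromosomes 4, X and 6 members had median H3K4me3 pile-ups of 85.5, 84.5 and 80 reads, under the 97 of all members, and on 14 and 19 of 103 and 95. Chromosomes 22 and 13 had similarly low pile-ups, 81.5 and 83.5 reads. Their parts without WT were less high, at 76.2% (65.7 to 84.8%) and 74.3% (62.4 to 84.0%). Pile-up was highest on chromosome 17, at 64 HA-BAZ2B and 111.5 H3K4me3 reads. The depth-scaled ratio stayed between 0.962 (chromosome 21) and 1.11 (chromosome 10).

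**Figure D4:**
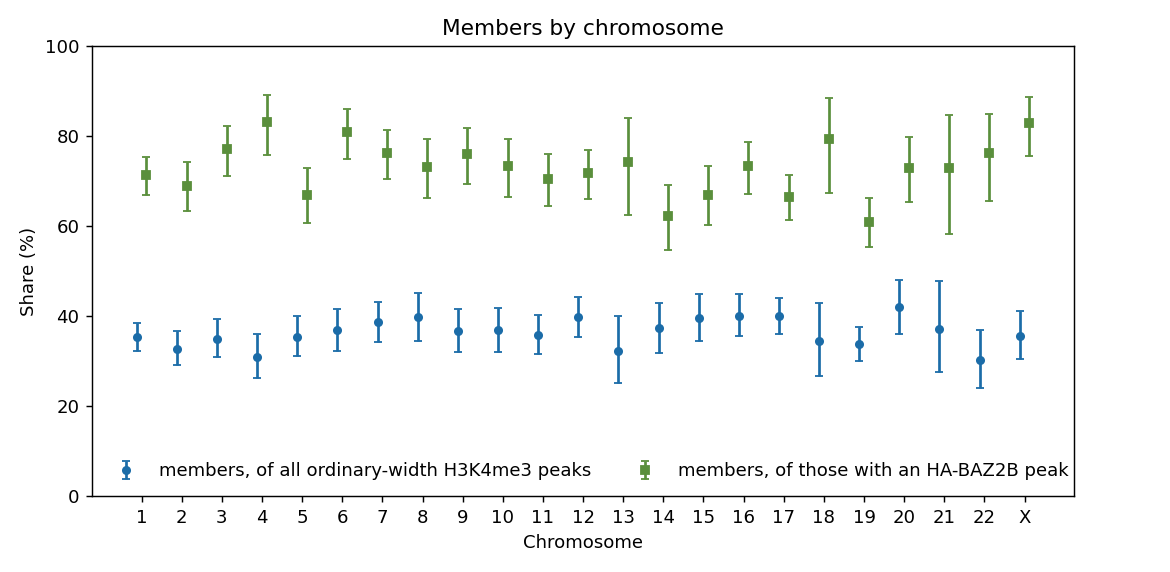
Members as a share of all ordinary-width H3K4me3 peaks (circles) and of those that held an HA-BAZ2B peak (squares), in % (y axis), for each chromosome (x axis); bars are exact 95% binomial intervals over peaks. The circles stay between 30.2 and 42.0%, and the squares range from 60.8% on chromosome 19 to 83.2% on chromosome 4.

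Members followed each other along the chromosomes about as often as they followed other peaks. The next ordinary-width peak was a member after 37.7% of members (36.0 to 39.3%) and after 35.8% of other ordinary-width peaks (34.6 to 37.0%). Of the stretches of neighbouring H3K4me3 peaks that were all members, 2059 held 1 peak, 458 held 2 and 8 held the longest run of 5. The tightest run of 5 was at 12q13.2 (chr12:56435233-56512589), over 77.4 kb, followed by 7p22.1 (chr7:6387905-6544337), over 156 kb, and 5q31.1 (chr5:132165455-132388824), over 223 kb. The distance to the nearest other H3K4me3 peak had a median of 32.9 kb at members, 30.2 kb with both lists and 35.0 kb with neither. Another H3K4me3 peak lay within 1 kb of 88 members (2.55%, 2.05 to 3.14%), against 1.39% of peaks with both lists and 2.79% of those with neither. The closest to members, 132 bp away, were at chr10:69644086-69645313 (10q21.3) and chr20:34637994-34639048 (20q11.23). The most isolated member was chrX:146992965-146994392 (Xq27.3), 1591 kb from the next H3K4me3 peak, with 42 HA-BAZ2B and 82 H3K4me3 reads. At chr4:22516766-22518104 (4p15.2) and chr13:93879169-93880968 (13q31.3), 1355 and 1320 kb from the next peak, HA-BAZ2B had 29 and 64 reads against 77 and 82 H3K4me3 reads.

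Values just inside and just outside the width limits overlapped. Just inside the lower limit were members of 1000 bp at chr19:48103348-48104347 and chr19:52207009-52208008, with 24 and 16 HA-BAZ2B reads against 84 and 75 H3K4me3 reads. Just outside it, peaks with HA-BAZ2B only and 1 bp less in width lay at chr10:88730547-88731545, with 6 and 39 reads, and at chr14:51706618-51707616, with 67 and 109. Just inside the upper limit were the member of 1999 bp at chr6:27113328-27115326, with 45 and 93 reads, and the one of 1998 bp at 1p36.23 given above. Just outside were peaks of 2002 bp at chr7:99697938-99699939, with 59 and 108 reads, and of 2004 bp at chr1:155657437-155659440, with 99 and 125.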

How the data were processed

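For these CUT&Tag libraries, Bowtie2 2.4.5, MACS2 2.1.4, Picard, SAMtools 1.15.1, bedtools and the builds hg19 and dm6 are named, per the submitters' processing notes. The settings, any control library and the use of the spike-in are not stated there. Each group has 1 list deposited by the authors, which holds the peaks of the largest replicate file that recurred in at least 2 replicates, per the labels. Fold enrichment (a ratio over the caller's background), −log10 p and q, the caller's score (not used here) and positions are as deposited by the authors. No gene names or sequences are given, since the reference used here is of another build than the files.

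Pile-up n and background b were solved from fold = (n + 1)/(b + 1) and the Poisson upper tail, with a misfit allowed of 1e-04. The next best whole number missed by at least 0.000775. The read extension recovered was 292 bp for HA-BAZ2B and 299 bp for the H3K4me3 and WT libraries. Whether b was counted in the library itself or in a control is not given. If it was the library itself, a 10 kb count also includes the peak's own reads, because the window spans the member. Recovery was tested on simulated data, where 1589 of 1589 rows came back right. Depth-scaled pile-up is n over the lowest b of its library. Tools were Python 3.11.15, numpy 2.4.6, pandas 2.3.3, scipy 1.17.1 and circlize 0.4.16 (hg19 bands).

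No test was run. Named regions were the extremes of HA-BAZ2B and H3K4me3 fold enrichment, coverage, spacing and WT distance, those at the width limits, and regions named as chosen later. The members, rules and measures were chosen with earlier results of these data known, and pile-up was added after the files had been seen. Alternatives changed the overlap, −log10 q, WT distance and width limits.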

Additional observations from a re-analysis of the deposited data

How the results depend on the processing

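Over 13 results and 5 alternatives, 57 of 65 values stayed within the interval of the reported value, or within 1.5 times for the number of members, and 0 turned their direction. The 4 alternatives on overlap, anti-HA summit position, −log10 q and a WT peak within 1 kb gave 3432 to 3537 members and moved none of the other 12 results beyond its interval. With the width limited to 1200 to under 1800 bp, 2271 members were left, which follows from the narrower limits. In that range the median share covered was 90.3%, the width ratio 0.947, the rank correlation of fold enrichment 0.70, and the depth-scaled pile-up ratio 1.08. The median H3K4me3 fold enrichment was then 0.39 higher at members than with neither list (0.22 to 0.57). Over the whole width range this difference was 0.12, with an interval of −0.08 to 0.30 that includes 0. Against peaks with both lists it was 0.0768 higher at members (−0.12 to 0.27), and 0.31 higher over the whole range (0.10 to 0.54). The H3K4me3 pile-up was 19 reads higher at members than with neither (22 over the whole range). No paired analysis was possible because each group was deposited as 1 list with no value per replicate, and for the same reason no replicate could be left out. Depth limits the weakest members, whose HA-BAZ2B summits held as few as 4 reads.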
